A study of Mus musculus with 4 samples.

Results

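The genes described here are the transcription factor gene Atf4, the outputs of the integrated stress response that Atf4 governs, and the Tribbles family, of which Trib3 is a known Atf4 target: Trib1, Trib2, Trib3, Atf4, Atf5, Ddit3, Ddit4, Asns, Chac1 and Herpud1. All probe sets that the platform annotation gives to these 10 symbols were taken, 17 probe sets of the 20380 that carry 1 gene symbol, and these stand for 10 of 12393 genes. These genes were chosen by name and selected on the signals of these same 4 arrays, with the differences between the lines already known, so their values are given as a description, without a test. The cells were CH10T1/2, mouse embryonic fibroblasts able to enter the cartilage, bone, fat and muscle lineages, and their RNA was hybridised to 4 arrays (Affymetrix Mouse Genome 430A 2.0). The 4 groups, with 1 array each, were the line stably transfected with the R150C variant of PTHR1 given PTHrP, the same line given carrier, the line stably transfected with wild-type PTHR1 given PTHrP, and the wild-type receptor line as control. The title of this last array names no treatment. Control medium below means carrier in the R150C line and this array in the WT line, so carrier and line may differ together there. PTHR1 is the receptor for parathyroid hormone and PTHrP, and the R150C variant was found in enchondromas, per the labels. All cells had spent a night without serum, and PTHrP was given at 1e-07 M for 1 h. Each receptor is represented by 1 transfected line, so receptor and line cannot be told apart, and with 1 array per group no value has a replicate error.

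In the integrated stress response, kinases that sense amino acid shortage, unfolded protein in the endoplasmic reticulum (ER), viral RNA or haem shortage phosphorylate the translation factor eIF2 on its alpha subunit. General translation then slows, while the mRNAs of Atf4 and Atf5 are translated more, so that much of the control of these factors lies in translation and is not seen in their mRNA. Atf4 protein, often as a dimer with a C/EBP factor, binds C/EBP-ATF response elements (CAREs) and switches on genes of amino acid synthesis and transport, redox balance and feedback. The Tribbles genes encode pseudokinases, kinase-like proteins that act mainly as scaffolds.

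Of the 10 genes, 9 have a promoter in the RefSeq table used here (build GRCm38.p6), Trib1 being the exception. In 4 of the 9, the window from 250 bases before the transcript start to 50 bases after it holds the CARE core TGATGNAA on one strand or the other. These 4 windows are printed 5′ to 3′ along the gene, because the 4 genes differed in their values at their brightest probe sets. There a pair of them (Trib3 and Herpud1) was lower in the R150C line in both media. The other pair (Asns and Chac1) differed little between the lines. Capitals mark the motif, and in Herpud1 also the ER stress response element ERSE-II, searched on both strands and not overlapping the CARE core.
Trib3, chr2:152344011-152344310, minus strand: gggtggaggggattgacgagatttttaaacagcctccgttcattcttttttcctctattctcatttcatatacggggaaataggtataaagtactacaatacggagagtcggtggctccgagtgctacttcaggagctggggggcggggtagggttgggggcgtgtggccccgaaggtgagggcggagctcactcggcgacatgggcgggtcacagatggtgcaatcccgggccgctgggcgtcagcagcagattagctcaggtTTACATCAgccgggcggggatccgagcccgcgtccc
Herpud1, chr8:94386179-94386478, plus strand: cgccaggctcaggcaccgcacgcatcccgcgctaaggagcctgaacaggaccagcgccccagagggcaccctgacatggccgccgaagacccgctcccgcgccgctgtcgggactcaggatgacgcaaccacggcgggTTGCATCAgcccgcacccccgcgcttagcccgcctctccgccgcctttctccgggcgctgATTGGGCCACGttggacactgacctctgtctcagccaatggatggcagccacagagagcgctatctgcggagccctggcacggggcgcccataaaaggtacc
Asns, chr6:7693160-7693459, minus strand: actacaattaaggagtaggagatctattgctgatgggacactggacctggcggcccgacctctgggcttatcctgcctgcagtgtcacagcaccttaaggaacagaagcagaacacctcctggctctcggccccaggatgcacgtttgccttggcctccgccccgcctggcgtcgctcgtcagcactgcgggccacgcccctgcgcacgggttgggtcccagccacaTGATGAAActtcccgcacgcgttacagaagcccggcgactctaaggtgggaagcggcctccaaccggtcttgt
Chac1, chr2:119350992-119351291, plus strand: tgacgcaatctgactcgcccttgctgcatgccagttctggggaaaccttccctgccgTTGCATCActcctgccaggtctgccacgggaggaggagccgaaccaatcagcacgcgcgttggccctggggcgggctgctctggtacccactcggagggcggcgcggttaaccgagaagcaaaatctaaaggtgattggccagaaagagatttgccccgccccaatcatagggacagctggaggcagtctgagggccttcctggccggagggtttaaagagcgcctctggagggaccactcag
The core in Trib3 reads TGATGTAA on the motif strand and begins at base 15 of the transcript. In Herpud1 it reads TGATGCAA, the same letters as in Chac1, and begins 112 bases before the start, with ERSE-II at 52 bases before it. In Asns the core is TGATGAAA, 23 bases before the start, and in Chac1 it lies 193 bases before the start. Of all 32851 promoter windows of this length, 3.97% hold the CARE core and 0.0365% hold ERSE-II. Counted by gene, the shares are 4.51% and 0.0444% of 27025 genes. The 10 genes were named in part as Atf4 targets, so nothing is read from 4 of 9 beside these shares. Such matches describe letters only. The windows of Atf4, Atf5, Ddit3, Ddit4 and Trib2 hold neither motif.

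The unit throughout is the deposited fluorescence signal, linear and already scaled so that each array has the same trimmed mean (150.1), which lets single genes be compared between arrays but not levels between genes. Differences are of log2(signal + 16), which understates the difference of dim genes. A gene stands at its brightest probe set, by the mean of log2(signal + 16) over the 4 arrays. It is called kept where that mean lies at or above the median over genes, equal to a signal of 62.6. Of the 10 genes, 9 were kept and Trib1 was not, and 13 of the 17 probe sets reached the filter. Over the 6197 kept genes the median difference lay between -0.04 and 0.05 in the 4 contrasts. The scatter of such a difference, taken from the departure of the 4 arrays from additivity, was 0.25 (SD, log2), which includes any true difference between the PTHrP responses. It leaves out any difference between the lines that both media share. The differences between the lines themselves had an SD of 0.43 over kept genes with PTHrP and 0.43 in control medium. The fibroblast markers were bright (8 of 10 kept, Vim from 7885 to 10659), although Dcn (4.6 to 31.0) and Lum (21.0 to 38.9) were dim. Of 24 macrophage, endothelial, epithelial and neuronal markers 2 were kept, and their summed signal was 557.8 (PTHrP) and 630.3 (carrier) in the R150C line against 511.3 (PTHrP) and 655.2 (control) in the WT line. The ratio of 3′ to 5′ signal of the Gapdh control probe sets was 1.21 with PTHrP and 0.991 with carrier in the R150C line, and 1.17 with PTHrP and 0.845 in control medium in the WT line. The same ratio of Actb was 2.31 with PTHrP and 2.13 with carrier in the R150C line, and 2.39 with PTHrP and 1.42 in control medium in the WT line. Both ratios were thus lowest in the WT control array, which enters the WT PTHrP differences and the control-medium differences between the lines. The Gapdh and the Actb ratio were each higher with PTHrP in both lines. Their part in the differences below was not tested. The Pth1r probe set read 3.2 to 3.9 in the 4 arrays, so the transfected receptor cannot be followed.

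**Figure D1:**
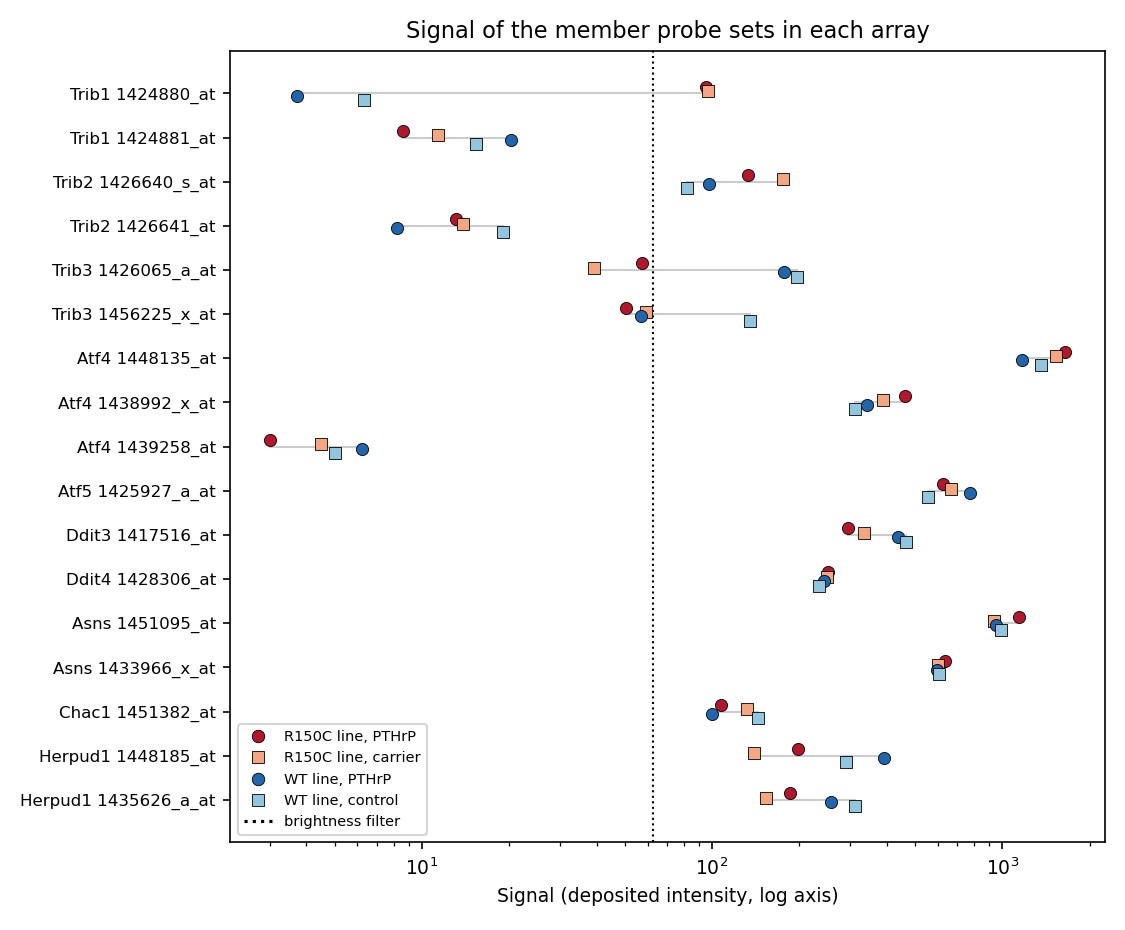
Signal of each of the 17 probe sets (rows) in the 4 arrays, on a log axis, with the R150C line in reds, the WT line in blues, circles for PTHrP and squares for carrier or control. The dotted line is the brightness filter (62.6). One Trib1 probe set separates the lines most widely, at 95.2 and 96.8 in the R150C line against 3.7 and 6.3 in the WT line, while the Trib3 probe set 1426065_a_at runs the opposite way.

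Setting the R150C line against the WT line asks which of the 10 transcripts differ between these lines, whatever the part of the receptor. The Tribbles genes ran in opposite directions at their brightest probe sets: Trib1 and Trib2 were higher in the R150C line in both media and Trib3 was lower. Of the 10 genes, 1 (Trib1) was at least 2-fold higher in both media and 1 (Trib3) at least 2-fold lower in both. Among all 12393 genes without the filter, 0.904% were at least 2-fold higher in both media and 0.323% at least 2-fold lower. Among the kept genes the shares were 1.52% and 0.355%. Nothing is read from the members' counts against these shares, because the genes were chosen with the values known. The median difference of the 10 genes was 0.07 with PTHrP and -0.002 in control medium, beside -0.02 and 0.004 for all genes, so the list as a whole did not lie to one side.

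Trib1, whose product brings C/EBP-alpha to the ubiquitin ligase COP1 for degradation, read 95.2 with PTHrP and 96.8 with carrier in the R150C line, against 3.7 with PTHrP and 6.3 in control medium in the WT line (probe set 1424880_at). The WT signals lay near the bottom of the array's range. The difference was 2.50 with PTHrP and 2.34 in control medium on the log2(signal + 16) scale, or 5.64-fold and 5.06-fold on that scale. In the 500 probe sets nearest to it in brightness the scatter of a pair of arrays was 0.41 (SD, log2), and 4.2% and 6.4% of them were at least 2-fold apart in either direction between the lines with PTHrP and in control medium. The other Trib1 probe set, 1424881_at, gave a different picture. It read 8.6 and 11.4 in the R150C line (PTHrP, carrier) against 20.3 and 15.4 in the WT line (PTHrP, control), a difference of -0.56 and -0.20. Both Trib1 probe sets lie below the filter, and with their mean the difference of Trib1 was 0.97 with PTHrP and 1.07 in control medium.

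Trib2, a relative with the same COP1-dependent action on C/EBP-alpha, read 133.1 with PTHrP and 176.2 with carrier in the R150C line, against 97.7 with PTHrP and 81.7 in control medium in the WT line. The difference was 0.39 with PTHrP and 0.98 in control medium. The first of these is 1.40 times the scatter of 0.28 (SD, log2) in probe sets of like brightness, and the second 3.50 times. That scatter leaves out differences shared by both media, and the line differences of kept genes had an SD of 0.43 in each medium. This probe set, 1426640_s_at, carries the suffix with which Affymetrix marks probes shared by several transcripts. The other one, 1426641_at, stayed between 8.2 and 19.0 and put Trib2 higher by 0.27 with PTHrP and lower, at -0.23, in control medium.

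Trib3, an Atf4 and Ddit3 target known as a feedback inhibitor of Atf4 and of the kinase AKT, read 57.2 with PTHrP and 39.1 with carrier in the R150C line, against 176.9 with PTHrP and 196.2 in control medium in the WT line (probe set 1426065_a_at). The difference was -1.40 with PTHrP and -1.95 in control medium, or 0.379 and 0.260 times the WT value on the log2(signal + 16) scale. Over both media its mean difference of -1.67 was the 5th lowest among the 6197 kept genes. Both R150C signals lay below the filter of 62.6, so Trib3 was kept through its WT signals. It was also chosen with these values known, so nothing is read from the rank. The scatter in probe sets of like brightness was 0.32 (SD, log2). The other probe set, 1456225_x_at, whose suffix marks probes that may also match other sequences, read 50.5 and 59.0 in the R150C line (PTHrP, carrier) against 56.8 and 135.6 in the WT line (PTHrP, control). There the difference was -1.02 in control medium but -0.13 with PTHrP, so the lower Trib3 level in PTHrP medium rests on 1 probe set. With the mean of both probe sets Trib3 stood at -0.76 with PTHrP and -1.48 in control medium.

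Herpud1 encodes an ER membrane protein of the degradation pathway for misfolded proteins. Its probe set 1448185_at read 197.1 with PTHrP and 139.6 with carrier in the R150C line, against 391.2 with PTHrP and 289.4 in control medium in the WT line. The difference was -0.93 with PTHrP and -0.97 in control medium, just under 2-fold. Its other probe set, 1435626_a_at, read 185.2 and 153.7 in the R150C line (PTHrP, carrier) against 256.3 and 310.4 in the WT line (PTHrP, control), a difference of -0.44 and -0.94. Both probe sets thus put Herpud1 lower in the R150C line in both media. The mean difference of 1448185_at over both media, -0.95, was the 40th lowest among the kept genes. Nothing is read from this rank either, because the gene was chosen with its values known.

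Ddit3, the gene of the transcription factor CHOP that partners with Atf4 and is linked to cell death under lasting stress, was also lower, by less. It read 294.3 with PTHrP and 332.7 with carrier in the R150C line, against 437.7 with PTHrP and 466.5 in control medium in the WT line. The differences were -0.55 with PTHrP and -0.47 in control medium, beside a scatter of 0.23 (SD, log2) in probe sets of like brightness. That scatter leaves out differences shared by both media. Of the kept genes, 5.7% had a lower value with PTHrP and 8.5% in control medium.

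The remaining 5 genes differed by 0.49 or less between the lines (log2). Atf4 itself was slightly higher, at 1646 with PTHrP and 1530 with carrier in the R150C line, against 1169 with PTHrP and 1363 in control medium in the WT line. The difference was 0.49 with PTHrP and 0.17 in control medium, the second within the scatter of 0.24 (SD, log2). A second Atf4 probe set, 1438992_x_at, differed by 0.41 and 0.30 in the same direction, with 461.9 and 388.5 in the R150C line (PTHrP, carrier) against 343.3 and 311.7 in the WT line (PTHrP, control). The third, 1439258_at, read 6.2 or less in every array. By either of the brighter probe sets Atf4 mRNA was thus not lower in the R150C line. Atf4 protein was not measured, and a link between Atf4 and the levels of Trib3, Herpud1 and Ddit3 was not tested.

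Atf5, a relative of Atf4 under similar translational control, read 625.3 with PTHrP and 665.3 with carrier in the R150C line, against 776.1 with PTHrP and 553.8 in control medium in the WT line. The groups overlapped, and the sign of the difference turned with the medium (-0.30 with PTHrP, 0.26 in control medium). Ddit4, an inhibitor of the growth kinase complex mTORC1, read 251.6 with PTHrP and 248.5 with carrier in the R150C line, against 243.8 with PTHrP and 234.5 in control medium in the WT line. Its differences of 0.04 with PTHrP and 0.08 in control medium were well inside the scatter of 0.25 (SD, log2).

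Asns, the asparagine synthetase gene and a textbook Atf4 target, read 1146 with PTHrP and 937.7 with carrier in the R150C line, against 953.6 with PTHrP and 994.4 in control medium in the WT line. Its differences were 0.26 with PTHrP and -0.08 in control medium (0.01 with each array centred on its median probe set), and 0.08 and -0.01 by its other probe set, 1433966_x_at. Chac1, which encodes an enzyme that breaks down glutathione, read 107.8 with PTHrP and 132.1 with carrier in the R150C line, against 99.9 with PTHrP and 143.8 in control medium in the WT line. The WT values of Chac1 enclosed those of the R150C line, and the differences were 0.10 and -0.11. The 4 genes with a CARE core in the printed windows therefore ran from Trib3 at -1.67 and Herpud1 at -0.95 to Chac1 at -0.01 and Asns at 0.09 (mean difference over both media, log2).

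**Figure D2:**
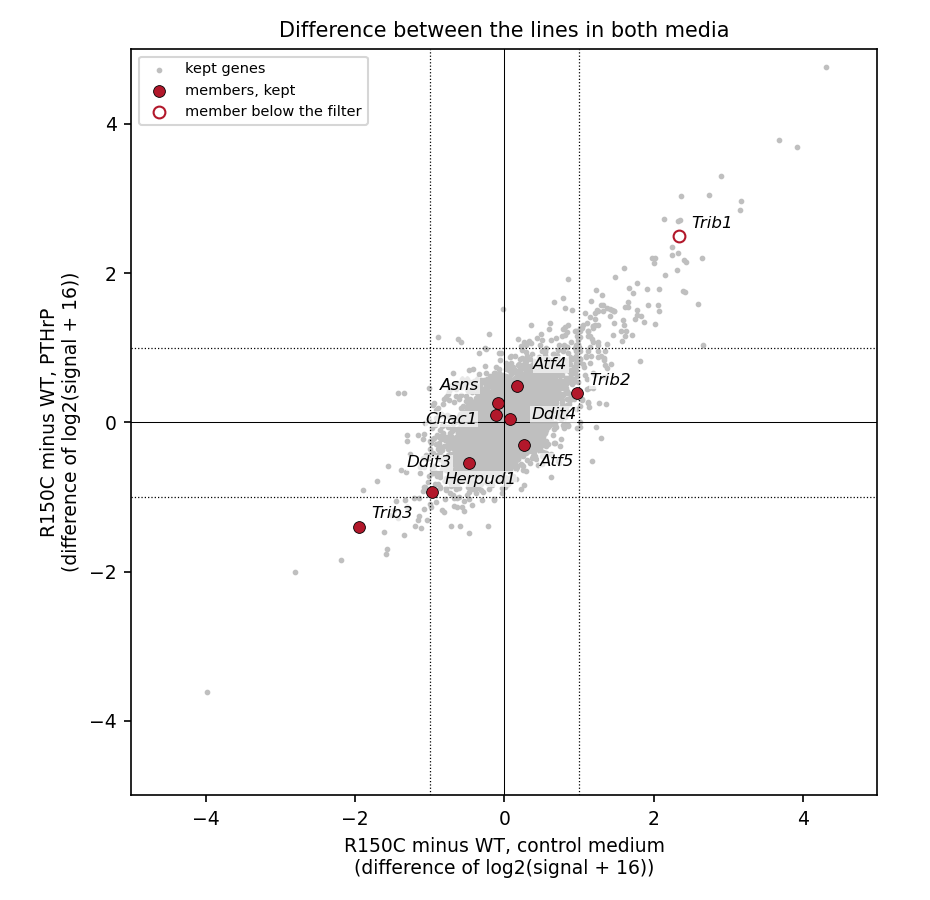
Difference between the lines (R150C minus WT) with PTHrP (vertical) and in control medium (horizontal), in log2(signal + 16), for the 6197 kept genes in grey and the 10 genes in red, at their brightest probe set; the open circle is Trib1, below the filter. Dotted lines mark 2-fold. Trib1 lies at 2.50 with PTHrP and 2.34 in control medium, Trib3 at -1.40 and -1.95, Herpud1 at -0.93 and -0.97, while Atf4, Atf5, Ddit4, Asns and Chac1 lie near the centre.

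The kept genes whose profile over the 4 arrays lay nearest to that of Trib3, by Euclidean distance between log2(signal + 16) values less each gene's own mean, were Ackr3 (0.31), Dusp1 (0.37), Rspo2 (0.38), Zfp503 (0.39) and Fzd2 (0.39). None of these is a member of the stress response lists used here. Ackr3, a scavenger receptor for chemokines, read 84.0 and 58.6 in the R150C line (PTHrP, carrier) against 260.0 and 213.2 in the WT line (PTHrP, control). With 4 arrays such nearness reflects mainly a like difference between the lines.

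Around the 10 genes, 8 lists of the wider pathway hold 143 other genes, of which 123 had a probe set and 97 were kept. Of these 97, 0 were higher in R150C cells by 2-fold or more in both media and 1 was lower, beside 1.52% and 0.355% of all kept genes. The 1 lower gene was Sesn2, a stress-induced inhibitor of mTORC1 that Atf4 and p53 can both switch on. It read 50 with PTHrP and 69.5 with carrier in the R150C line, against 159.7 with PTHrP and 169.3 in control medium in the WT line, a difference of -1.41 and -1.12. Its other probe set differed by -0.96 and -0.97, so both probe sets put Sesn2 lower in both media. At 1.5-fold in both media the counts were 2 higher and 3 lower, beside 3.6% and 1.87% of kept genes. Nothing is read from these counts against the shares, because the lists were chosen with earlier results of these data known.

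The further genes in these counts are named here after their values were seen. Atf3, a stress-induced relative of Atf4, read 101.4 and 115.6 in the R150C line (PTHrP, carrier) against 51.6 and 51.8 in the WT line (PTHrP, control), a difference of 0.80 and 0.96. Nfil3, another bZIP factor, was higher by 0.69 and 0.87. The lower ones were Eif2ak3, which encodes the ER stress kinase PERK (101.5 and 117.0 in the R150C line with PTHrP and carrier, against 192.4 and 190.5 in the WT line with PTHrP and control, a difference of -0.83 and -0.63), and Psph, an enzyme of serine synthesis (-0.60 and -0.72).

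By list, the median difference over both media was -0.12 in 11 kept genes of eIF2-alpha kinases, eIF2B and phosphatase subunits, -0.16 in 8 enzymes of amino acid synthesis and -0.32 in 6 amino acid transporters. It was -0.03 in 16 aminoacyl-tRNA synthetases, -0.04 in 12 further outputs and partners of Atf4, and -0.06 in 26 genes of the ER unfolded protein response. For 12 partners of Tribbles and Ddit4 around AKT and mTORC1 it was -0.03, and for 6 glutathione genes -0.22, beside -0.03 for all kept genes. These medians moved with the filter and with the choice of probe sets. Without the filter the transporters' median became -0.03, the glutathione genes' -0.06, that of the AKT and mTORC1 partners -0.13 and that of the further Atf4 outputs -0.15. With the filter at the 75th percentile the partners' median turned to 0.09, and with probe sets averaged that of amino acid synthesis became -0.04. None of the 16 kept synthetases and none of the 26 kept genes of the ER unfolded protein response reached 1.5-fold between the lines in either medium. The share of all kept genes under this condition is not given here, so nothing is read from these counts. Below the filter Ern1, which encodes the ER stress sensor IRE1-alpha, differed by -0.79 with PTHrP and -0.23 in control medium. Hspa5, the ER chaperone BiP and a standard readout of ER stress, read 3160 with PTHrP and 3547 with carrier in the R150C line, against 3675 with PTHrP and 3425 in control medium in the WT line, a difference of -0.22 and 0.05. Herpud1 differed by -0.93 and -0.97 at its brightest probe set and by -0.44 and -0.94 at the other. A link between Hspa5 and Herpud1 was not tested. Cop1, the ligase gene through which Trib1 and Trib2 act, differed by -0.04 and 0.09. Cebpa, whose protein is the target of that pathway, lay below the filter, with 22.5 and 16.4 in the R150C line (PTHrP, carrier) against 80.6 and 58.9 in the WT line (PTHrP, control); Ern1, Hspa5, Cop1 and Cebpa are also named after their values were seen.

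**Figure D3:**
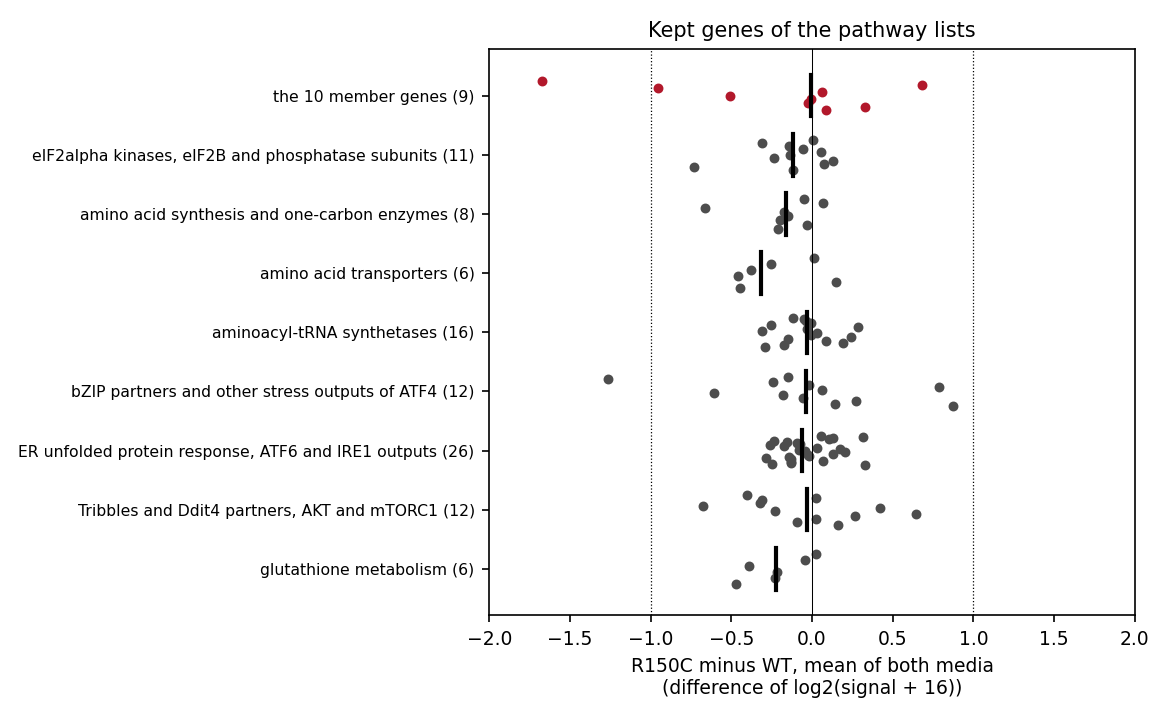
Difference between the lines (R150C minus WT, mean of both media, log2(signal + 16)) for the kept genes of each list, 1 point per gene, with the number of kept genes in brackets; black bars are medians and dotted lines mark 2-fold. The 9 kept members spread from -1.67 (Trib3) to 0.68 (Trib2), while the list medians lie between -0.32 and -0.01.

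The PTHrP comparisons asked what 1 h of ligand does in each line. None of the 10 genes reached 1.5-fold at its brightest probe set in either line. In the WT line 1 gene did under each of 3 other settings: Atf5 (0.64) when each array was centred on the median of its probe sets, Trib1 (-0.64) with a pseudocount of 1, and Trib3 (-0.60) by the mean of its probe sets. Among kept genes 1.32% were at least 1.5-fold higher and 0.613% at least 1.5-fold lower in the R150C line, and 1.6% and 2.16% in the WT line. In either direction 5.55% of kept genes did so in 1 or both lines, and 0.0645% in the same direction in both. The median difference of the 10 genes was -0.002 in the R150C line and -0.07 in the WT line, beside -0.03 and 0 for all genes.

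Herpud1 differed in the same direction in both lines. It stood 0.45 higher with PTHrP in the R150C line (197.1 against 139.6 with carrier) and 0.42 higher in the WT line (391.2 against 289.4), which is 1.88 and 1.72 times the scatter of 0.24 (SD, log2). Its other probe set showed 0.25 in the R150C line and -0.26 in the WT line, so the like response rests on 1 probe set. Chac1 was lower with PTHrP in both lines, by -0.26 in the R150C line (107.8 against 132.1) and -0.46 in the WT line (99.9 against 143.8), with a scatter of 0.29. Ddit3 differed by -0.17 in the R150C line and -0.09 in the WT line, and Ddit4 by 0.02 and 0.05. Trib1 differed by -0.02 and -0.18 in the same order. When each array was centred on the median of its probe sets, Ddit3 in the WT line turned to 0.08 and Trib1 in the R150C line to 0.03.

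Including Chac1, whose difference between the lines changed sign with the medium, 6 of the 10 genes had opposite signs between the lines or between the media, beside 59.1% of kept genes. In the genes not yet described the sign of the PTHrP difference differed between the lines, except that Trib3 (0.03) and Asns (0.11) turned positive in the WT line when each array was centred on the median of its probe sets. That centring moved the median WT difference of all kept genes to 0.22, from which such values should be read. Trib3 stood at 0.41 in the R150C line (57.2 with PTHrP against 39.1 with carrier) and at -0.14 in the WT line (176.9 against 196.2). Its other probe set stood at -0.17 in the R150C line and -1.06 in the WT line, where the signal was 56.8 with PTHrP against 135.6 in control medium. Trib2 stood at -0.37 and 0.22 (in the WT line -0.16 by the mean of its probe sets, where Trib1 turned to 0.02), Atf5 at -0.09 and 0.48, Atf4 at 0.10 and -0.22, and Asns at 0.29 and -0.06 in the R150C and the WT line. Over kept genes the difference between the responses of the lines had an SD of 0.35, and the 10 genes ran from -0.59 (Trib2) to 0.55 (Trib3), within 2 such SDs of 0.

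**Figure D4:**
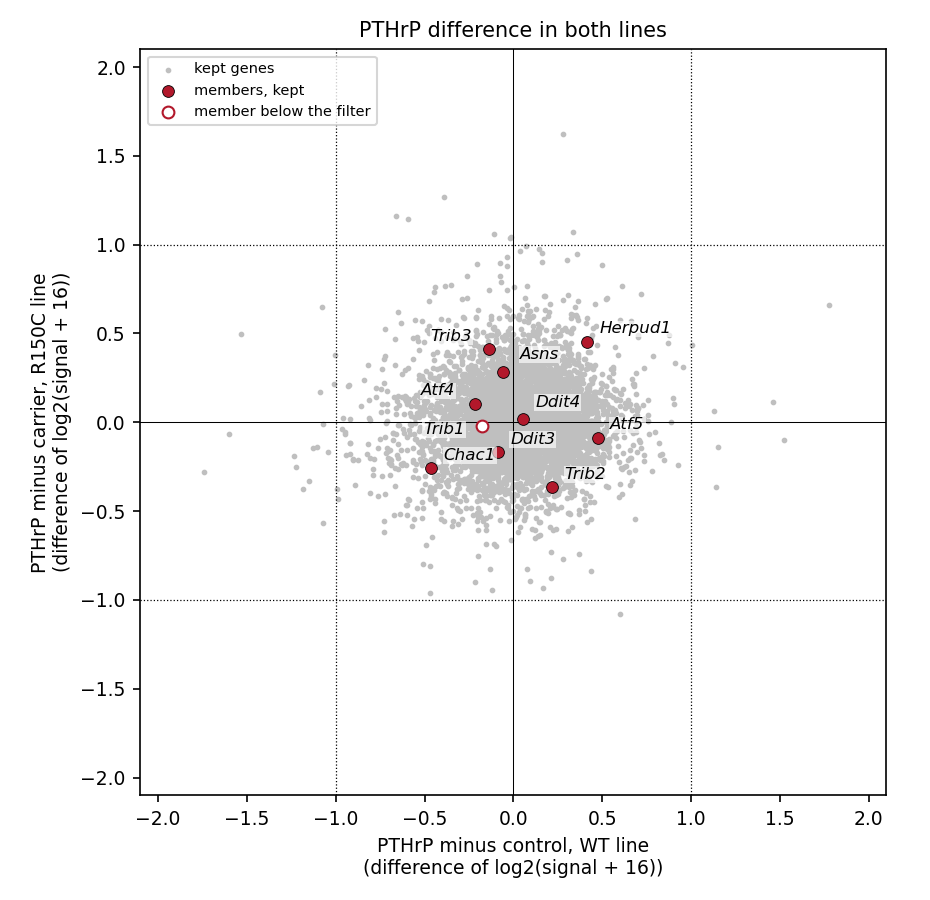
PTHrP minus carrier in the R150C line (vertical) and PTHrP minus control in the WT line (horizontal), in log2(signal + 16), for the kept genes in grey and the 10 genes in red (Trib1, below the filter, as an open circle). Dotted lines mark 2-fold. All 10 genes lie inside 1.5-fold on both axes; Herpud1 is in the upper right at 0.45 in the R150C line and 0.42 in the WT line, and Chac1 in the lower left at -0.26 and -0.46.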

How the data were processed

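RNA of 4 samples was measured on 4 arrays, 1 per group, grouped by the titles. The authors deposited fluorescence intensities on a linear scale. The submitters' processing notes name Expression Console. Not given in the sources used here are its version and how probes were summarised. No detection calls were used. From the values, each array is globally scaled (trimmed mean over all but 2% of probe sets at each end), so no further scaling was applied.

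Of 22690 probe sets, 64 are Affymetrix controls, 20380 have 1 gene symbol in the platform annotation, 691 several and 1555 none. Symbols were updated through Entrez identifiers (20351 matched, GRCm38.p6, names and promoters only). Differences of log2(signal + 16) were computed in Python 3.11.15 with pandas 2.3.3, and checked on simulated data. With 1 array per group there is no test and no p-value, and precision is limited by the number of arrays. The members and lists were chosen with earlier results of these data known. Named genes are all members, list genes 2-fold apart between the lines in both media (or 1.5-fold with PTHrP in both lines, which named none), and the 5 nearest to Trib3. Other genes are named outside this rule, after their values were seen, as the text says. Alternatives varied scaling, pseudocount, probe set choice, filter and fold.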

Additional observations from a re-analysis of the deposited data

Results flagged for a closer look

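In 6 of the 10 genes the sign of a single-array difference was opposite between the 2 lines (PTHrP against control) or between the 2 media (R150C against WT), which is what flags them. Among all kept genes 59.1% met the same condition. The PTHrP difference in the R150C line minus that in the WT line was -0.59 for Trib2, 0.55 for Trib3, 0.32 for Atf4, -0.56 for Atf5, 0.34 for Asns and 0.20 for Chac1 (log2). With 1 array per group these differences were not tested, and the SD of the same quantity over kept genes was 0.35. With the mean of all probe sets, Trib2 stood at -0.05.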

How the results depend on the processing

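No paired analysis was possible because each group has 1 array. For the same reason no replicate could be left out. Of 360 values of the 10 genes under the alternatives, 331 moved by less than the scatter of a pair of arrays and 29 by more. For the difference between the responses the limit was wider, its own SD of 0.35. Averaging probe sets could not move the 4 genes with 1 probe set, and centring shifts all genes of a contrast alike. The count of 331 therefore does not measure how stable the values are. No difference of 2-fold or more changed sign, but no alternative used a dimmer probe set alone. By its dimmer probe set Trib1 differed by -0.56 with PTHrP and -0.20 in control medium, opposite in sign to the brighter one. Centring on the kept genes and quantile normalization moved none by more than the scatter. Trib3 in the R150C line against the WT line lay between -1.61 and -0.76 with PTHrP and between -2.30 and -1.34 in control medium, Herpud1 between -0.99 and -0.69 and between -1.05 and -0.80, and Trib1 between 0.97 and 4.36 and between 1.07 and 3.74. The cause of these shifts was not tested.

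With a gene's probe sets averaged, 0 of the 10 genes were at least 2-fold higher and 0 at least 2-fold lower in both media (1 and 1 as reported). Then 1 member, Trib3 (-0.60), was at least 1.5-fold lower with PTHrP in the WT line, and the kept genes past 1.5-fold with PTHrP were 33 higher in the R150C line and 50 higher and 226 lower in the WT line. As reported these counts were 82 higher and 38 lower in the R150C line, and 99 higher and 134 lower in the WT line. With a pseudocount of 64, 0 members, 0 pathway genes and 10 kept genes were at least 2-fold lower in both media (1, 1 and 22 as reported), and the PTHrP counts were 34 higher and 10 lower in the R150C line, and 35 higher and 47 lower in the WT line. With a pseudocount of 1, 75 kept genes were at least 1.5-fold lower with PTHrP in the R150C line, and 1 member (Trib1, -0.64) in the WT line. Centred on the median of all probe sets, 24 were lower in the R150C line, and 349 were higher and 50 lower in the WT line, with 1 member (Atf5, 0.64) among the higher.

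Without the filter the PTHrP counts were 330 higher and 537 lower in the R150C line and 341 higher and 701 lower in the WT line, and 40 genes and 2 pathway genes were at least 2-fold lower in R150C cells in both media. With the filter at the 75th percentile the PTHrP counts were 28, 6, 43 and 24 in the same order, and 9 genes and 0 pathway genes were lower. Counted at 1.5-fold, 223 kept genes were higher and 116 lower in both media (94 and 22 at 2-fold), as were 2 and 3 pathway genes, and 2 members, Trib3 and Herpud1, were lower.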

Other observations

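Of the 97 kept pathway genes, 4 differed by at least 1.5-fold between PTHrP and control in 1 line, and none did so in both. Among all kept genes 5.55% did so in 1 or both lines, and nothing is read from 4 of 97 beside that share. Ppp1r15a, which encodes the phosphatase subunit GADD34 that reverses eIF2-alpha phosphorylation, read 178.1 with PTHrP and 184.9 with carrier in the R150C line, against 287.3 with PTHrP and 181.9 in control medium in the WT line. Its PTHrP difference was thus -0.05 in the R150C line and 0.62 in the WT line. Jdp2, a bZIP repressor, stood at 0.59 and 0.36. Gclm, a subunit of the enzyme that starts glutathione synthesis, stood at -0.59 and 0.04, and the glutathione reductase gene Gsr at -0.07 and -0.66. These genes are named after their values were seen, and no difference between the lines was tested.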
